A study of Mus musculus with 15 samples.

Results

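The cytosolic ribosome of mouse is assembled from ribosomal RNA and a fixed set of proteins, named Rpl in the large subunit and Rps in the small subunit. The genes studied here were all genes of the normalized expression table whose symbol was Rpl or Rps followed by a number and at most one of the letters a, l, x or y, together with the stalk proteins Rplp0 to Rplp2 and Rpsa, leaving out symbols marked as pseudogenes and the Rps6k kinases. This symbol rule gave 82 genes out of 16772, 50 of the large and 32 of the small subunit, and all 82 could be matched to a row of the gene counts in all 15 libraries. The rule used no measured value. Rpl6l and Rps4l, which the symbol rule kept, are themselves annotated as processed pseudogenes in GENCODE M21.

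Total RNA depleted of ribosomal RNA was sequenced from mouse embryonic stem cells (ESCs) in which the transcription factor OCT4, encoded by Pou5f1, could be removed in either of 2 ways. CreER ESCs (labelled Oct4Fl/- with a CAG-driven CreER, mixed 129SV and C57BL/6 background) received 500 nM 4-hydroxytamoxifen (4-OHT), which activates the recombinase, for 12, 18, 24 or 36 h or were left untreated, with 2 libraries at each time. O4AID ESCs (a ZHBT line of 129SV background, labelled Oct4-/- with a TetOFF Oct4 transgene, CAG Oct4AID and CAG Tir1) received 500 µM auxin (indole-3-acetic acid, IAA), which sends the tagged OCT4 protein for degradation, for 1.5, 6, 10 or 24 h or were left untreated, with 1 library at each time. The CreER, Oct4AID and Tir1 transgenes thus ran from the constitutive CAG promoter. The untreated CreER ESCs carried a single Oct4 allele, and the Oct4 of the untreated O4AID ESCs was the tagged protein. The paper states that O4AID ESCs were kept in doxycycline, which silences the TetOFF Oct4 transgene. It grew ESCs in serum-free 2iL medium unless stated otherwise. For its qRT-PCR and western blot course of Oct4Fl/- ESCs, it gives a change to serum medium along with 4-OHT. Whether the sequenced CreER ESCs had this change is not stated in the paper. Any effect of medium along that course cannot be told apart from that of 4-OHT. The sources do not say whether either line was 1 clone, nor that the 2 libraries of a CreER time came from separate cultures, so p-values measure the spread between these libraries, which may be technical.

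Ribosomal protein genes are among the most strongly transcribed genes of any growing cell, and their mRNAs belong to the TOP class, whose first bases are a C followed by a run of pyrimidines through which mTOR and LARP1 set translation. Because these mRNAs are short, abundant and present in the germ line, they have been copied back into the genome many times. The resulting intronless retrocopies (processed pseudogenes) can be nearly identical to the coding sequence of the parent gene, so that a read from an mRNA can match both places.

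The libraries held 21655083 to 30774618 counted reads in CreER ESCs and 40537353 to 48719670 in O4AID ESCs. Levels are given as CPM, the count divided by the library total and scaled by TMM factors over all 15 libraries. Pou5f1 fell in CreER ESCs from 324 and 316 CPM untreated to 112 and 124 CPM at 36 h (log2 fold change −1.43, SE 0.0450, adjusted p = 4.15e-19, edgeR quasi-likelihood test), whereas in O4AID ESCs, where the protein and not the gene is the target, it was 756 CPM untreated and 637 CPM at 24 h. All 8 ESC markers were at 52.0 CPM or more in every untreated library, and each of 6 fibroblast markers was at 3.65 CPM or less in them, with Dcn at 0 in untreated O4AID ESCs.

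Counted reads were divided differently between ribosomal protein genes and their retrocopies in the lines. A search of the GENCODE M21 annotation (GRCm38) with the coding sequence of each gene that had one of at least 150 bases, which left out 3 genes (Rpl41, Rpl6l and Rps4l), found 1097 retrocopies of 75 of them among the pseudogenes and retrogenes with a row of their own in the counts (at least 85% identity over at least 50% of the coding sequence and 150 bases). The following stretches of 90 bases, from the coding strand of the GENCODE transcripts, show how little separates a gene from a retrocopy. The 3 pairs are among the most abundant retrocopies of untreated CreER ESCs, 1 for each parent, that were at least 20 times lower in untreated O4AID ESCs, and were chosen after their values were seen. Capitals mark the bases at which gene and retrocopy differ.
Rpl23: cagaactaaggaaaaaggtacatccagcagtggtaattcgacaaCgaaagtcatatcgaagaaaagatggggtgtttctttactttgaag
Gm9794: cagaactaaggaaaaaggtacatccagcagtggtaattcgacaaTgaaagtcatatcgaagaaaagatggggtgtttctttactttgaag
Rpl14: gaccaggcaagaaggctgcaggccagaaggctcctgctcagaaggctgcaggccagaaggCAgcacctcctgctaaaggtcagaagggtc
Rpl14-ps1: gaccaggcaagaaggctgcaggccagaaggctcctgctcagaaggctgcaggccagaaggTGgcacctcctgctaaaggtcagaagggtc
Rps24: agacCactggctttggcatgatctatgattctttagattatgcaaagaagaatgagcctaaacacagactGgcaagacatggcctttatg
Rps24-ps3: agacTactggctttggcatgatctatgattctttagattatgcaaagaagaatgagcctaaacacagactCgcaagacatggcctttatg

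Gm9794 (chr6:66875321-66875743, minus strand) differs from the coding sequence of Rpl23 (chr11:97777527-97782437, minus strand) at 1 of 423 aligned bases. In untreated CreER ESCs, Gm9794 was counted at 906 and 865 CPM and Rpl23, a protein of the large subunit, at 37.1 and 36.8 CPM. In untreated O4AID ESCs the order was the opposite, with Gm9794 at 1.15 CPM and Rpl23 at 1434 CPM. The other pairs, picked by the same rule, showed the same exchange. Rpl14-ps1 on chromosome 7 went from 682 and 629 CPM to 9.79 CPM while Rpl14 went from 180 and 188 CPM to 1535 CPM. Rps24-ps3 on chromosome X went from 480 and 499 CPM to 0.563 CPM while Rps24 went from 114 and 125 CPM to 1652 CPM. Not all retrocopies moved this way. Of 345 with a mean of at least 10 counts in the untreated libraries, 247 were lower and 36 higher in O4AID ESCs. The rule was a log2 difference of at least 0.5 against both CreER libraries, by which 26.1% of all genes were lower and 28.5% higher.

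Summed over all genes, the ribosomal protein genes took 1.21% and 1.23% of the reads of the untreated CreER libraries and 6.21% (95% Wilson interval 6.20% to 6.21%) of the reads of the untreated O4AID library, and such intervals cover counting error only. Their retrocopies together had 22330 and 22813 CPM in CreER and 8282 CPM in O4AID. Of all reads in genes and retrocopies together, the genes held 34.1% to 34.8% in each of the 10 CreER libraries and 89.1% to 89.6% in each of the 5 O4AID libraries. The 2 lines did not overlap in this share, and it hardly moved with treatment in either of them. The retrocopy reads exceeded the reads of the parent gene for 60 of the 82 genes in untreated CreER ESCs and for 6 in untreated O4AID ESCs.

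**Figure D1:**
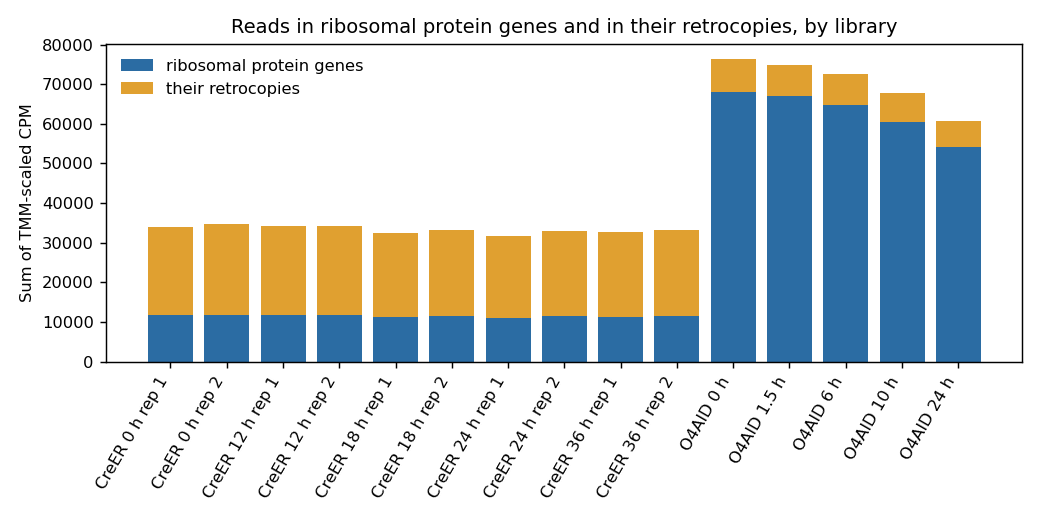
Summed level of the 82 ribosomal protein genes and, stacked on it, of their 1097 retrocopies in each of the 15 libraries (TMM-scaled CPM, bars from 0). In the CreER libraries most of the bar is retrocopy reads, with 11046 to 11824 CPM in the genes themselves, and in the O4AID libraries most of it is gene reads, with 68061 CPM untreated and 54249 CPM after 24 h of IAA.

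Between the untreated lines, 73 of the 82 genes were higher in O4AID ESCs by a log2 difference of at least 0.5 (on log2 of CPM plus 1) against both untreated CreER libraries, where 28.5% of all 18602 genes with a mean of at least 10 counts were. Another 3, Rpl6l, Rpl29 and Rpl24, were lower by that rule, where 26.1% of all genes were. The median difference was 3.75 over the ribosomal protein genes and 0.02 over all genes. There is 1 untreated O4AID library, so no test was possible. Line, strain background, genotype, doxycycline, any difference in medium and library preparation cannot be told apart. Rps29, a zinc finger protein of the small subunit, had the largest difference, from 1.81 and 2.44 CPM in CreER to 398 CPM in O4AID. It was followed by Rpl35 (6.65), Rps12 (6.61), Rps27 (6.45) and Rpl19 (6.33), of which Rps12 had 14.8 and 19.0 CPM in CreER and 1753 CPM in O4AID.

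At the other end, Rpl8 had 1489 and 1491 CPM in CreER and 1732 CPM in O4AID, a log2 difference of 0.22. Rps3, which lines the mRNA entry channel, had 1292 and 1284 CPM in CreER and 1587 CPM in O4AID (0.30), and no retrocopy of either gene was found. Rps4l had a difference of 0.08 and Rpl13a of 0.24, while Rpl29 was at −1.34 and Rpl6l at −1.41, lower in O4AID. With the reads of the retrocopies added, as described next, Rpl29 turned to 1.03 and Rpl13a to −1.58. Genes with a closer nearest retrocopy had larger differences. The 4 genes without any (Rpl8, Rps3, Rpl3l and Rpl39l) differed by 0.22 to 0.91, and the 3 whose nearest copy was under 95% identical had a median of 0.41. The median difference was 2.30 over the 19 genes with a nearest copy of 95% to 99% identity and 4.77 over the 53 with one of at least 99%. Across the 75 genes with retrocopies, the difference and the identity of the nearest copy had a Spearman rho of 0.57 and a Pearson r of 0.50. These points are genes that share the same 3 libraries and are a description only.

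The reads of the 1097 retrocopies were then added to the parent gene before scaling, an alternative chosen after the data were seen. Rpl6l and Rps4l, the annotated pseudogenes within the 82, kept their own rows and were not added to another gene. The median difference between the untreated lines became 1.21 in place of 3.75. With this addition 5 genes in place of 53 differed by 3 or more in either direction, 4 of them higher in O4AID. Rps29 came to 0.72, Rps27 from 6.45 to 0.46, Rpl11 from 5.58 to 0.55 and Rpl23 from 5.24 to 0.62. The differences of Rps23 and Rplp2 hardly moved. Rps23, a protein of the decoding center, was at 5.98 alone and at 5.87 with its retrocopies, which held only 1.44 CPM in CreER, and Rplp2 was at 5.10 alone and 5.09 with its retrocopies. Rps12 went from 6.61 to 4.01 and Rpl35 from 6.65 to 4.00. Rpl24 was the opposite case, since its row held 1.22 and 1.75 CPM in CreER and 0.248 CPM in O4AID, and 47.0% of its exon bases are shared on the same strand with another annotated gene, Gm28037. Its retrocopies had 89.4 CPM in CreER and 0.293 CPM in O4AID, so the summed difference was −5.91. The levels of Rpl24 in these counts are therefore uncertain. How reads that match several places or span several annotated genes were counted is not stated for the deposited counts, and whether strain differences at the retrocopies, the aligner or the RNA itself moved the reads was not tested.

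**Figure D2:**
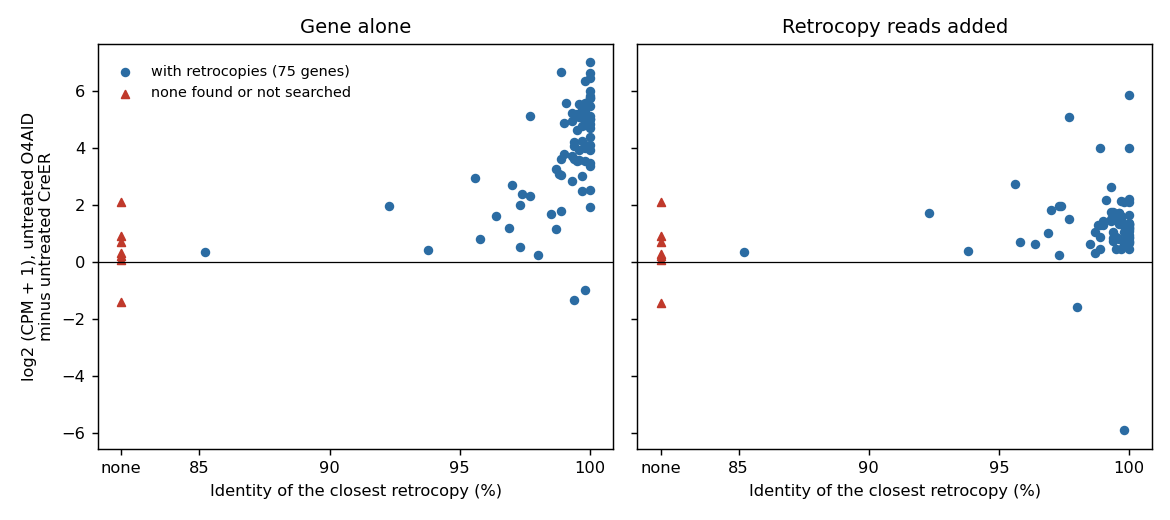
Difference between the untreated lines for each ribosomal protein gene (log2 of CPM plus 1, O4AID minus the mean of both CreER libraries) against the percent identity of its closest retrocopy, for the gene alone (left) and with the reads of its retrocopies added (right). Triangles mark the 7 genes with no retrocopy found or not searched. On the left the genes with a nearest copy of at least 99% identity have a median of 4.77, and on the right of 1.29.

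The order of the ribosomal protein genes differed between the lines. Per kilobase of exon, the highest genes of untreated CreER ESCs included Rpl8 (1729 CPM per kb), Rpl4 (1079), Rplp1 (640) and Rplp0 (310). In untreated O4AID ESCs Rpl8 (2009 CPM per kb), Rpl4 (2472) and Rplp1 (3338) were again among the 4 highest, but Rplp0 ranked 25, and Rps12 led with 3682 CPM per kb, where it had 35.5 in CreER. The lowest in CreER were Rpl3l (0.304 CPM per kb), Rpl24 (1.44) and Rps29 (3.07). Levels of the 82 genes had a Spearman rho of 0.49 between the untreated lines, of 0.74 once retrocopy reads were added, and of 0.99 between the untreated CreER libraries, as descriptions across genes. In untreated CreER ESCs 45 of the 82 genes were under 50 CPM, against 5 in O4AID.

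In CreER ESCs the ribosomal protein genes moved little over the first 24 h of 4-OHT. All 82 passed the filter on low counts. At 12 h 0 of them passed the edgeR quasi-likelihood test at an adjusted p under 0.05, where 0.395% of all 18969 genes tested did and 0.137% did and were lower, with 3 at an unadjusted p under 0.05, where 8.69% of all genes were, and 0 called by DESeq2. At 18 h again 0 passed, where 8.52% of all genes did and 3.79% did and were lower, with 8 at an unadjusted p under 0.05, where 22.0% of all genes were, and 0 called by DESeq2. The median log2 fold change over the 82 genes was −0.04 at both times. These values rest on which untreated library is used, since replicate 1 lay below replicate 2 in 57 of the 82 genes, with a median difference of −0.09 on the log2 scale. Leaving out the first of these gave 6 calls at 12 h and 14 at 18 h, and leaving out the second gave 1 and 0 calls, and both medians turned positive, to 0.04 and 0.03.

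At 24 h 5 of the 82 genes passed, 4 of them lower, where 21.6% of all genes did and 10.6% did and were lower, with a median log2 fold change of −0.02. Rpl10l, an intronless paralog of Rpl10 known from testis, fell most, from 24.2 and 21.8 CPM untreated to 17.4 and 18.0 CPM (log2 fold change −0.37, SE 0.0871, adjusted p = 0.00323, edgeR). Rpl39l, a paralog of Rpl39 also known from testis, fell from 12.3 and 14.5 CPM to 10.4 and 11.4 CPM (−0.31, SE 0.0937, adjusted p = 0.0198). Both 24 h libraries lay below both untreated ones for each of these paralogs. Rps4x fell by 0.12 and Rpl4 by 0.11 on the log2 scale. Rpl10a rose, from 71.2 and 76.8 CPM to 82.8 and 81.5 CPM (0.16, SE 0.0546, adjusted p = 0.0370), but with its retrocopy reads added its value was −0.06 with an adjusted p of 0.407. Only Rpl10l passed in each of the 4 fits that left out 1 of these libraries, which gave 1 to 13 calls, the 13 (10 of them higher) when replicate 2 of 0 h was left out. With retrocopy reads added 13 genes passed, all lower, 4 of them among the 5.

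By 36 h 16 of the 82 genes were lower, where 36.6% of all genes passed in either direction and 17.2% passed and were lower, and none was higher. The median log2 fold change was −0.11 over the ribosomal protein genes and 0.01 over all genes, and 67 of the 82 fitted changes were below 0. In 34 of the 82 genes both 36 h libraries lay below both untreated libraries, where this held for 32.2% of all genes. The 16 comprised 13 of the large and 3 of the small subunit. With replicate 1 of 0 h left out 35 genes passed, 34 of them lower, and the median was −0.15, and with replicate 2 left out 6 passed and the median was −0.04. With replicate 1 of 36 h left out 10 passed. With total counts in place of TMM 38 genes passed, all lower, while the median of all genes moved to −0.08. Reads of the mitochondrial ribosomal RNA genes mt-Rnr1 and mt-Rnr2, which enter the total, were 7.92% and 8.75% of the untreated libraries and 13.6% and 16.2% of the 36 h libraries.

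The 5 largest falls past the test at 36 h were in Rpl11, Rpl34, Rpl36, Rps27a and Rplp2. Rpl11, which with Rpl5 and the 5S ribosomal RNA can bind and inhibit MDM2, had 12.7 and 17.5 CPM untreated and 11.3 and 10.6 CPM at 36 h (log2 fold change −0.46, SE 0.112, adjusted p = 0.00207, edgeR), and its untreated libraries lay further apart than the nearer of them did from the 36 h libraries. Rpl34 had 9.80 and 12.7 CPM untreated and 8.77 and 7.76 CPM at 36 h (−0.44, SE 0.121, adjusted p = 0.00562). Rpl36 had 5.63 and 7.65 CPM untreated and 5.23 and 4.64 CPM at 36 h (−0.43, SE 0.147, adjusted p = 0.0237). Rpl11, Rpl34 and Rpl36 did not overlap between the times, but none of them passed without replicate 2 of 0 h (adjusted p = 0.181, 0.228 and 0.496), and Rpl34 and Rpl36 did not pass without replicate 2 of 36 h either (adjusted p = 0.0651 and 0.145). With retrocopy reads added, the log2 fold changes of Rpl11, Rpl34 and Rpl36 were smaller, at −0.21, −0.23 and −0.16.

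Rps27a, which is made as a fusion with ubiquitin, had 25.1 and 27.6 CPM untreated and 20.1 and 19.1 CPM at 36 h (log2 fold change −0.42, SE 0.0839, adjusted p = 0.000262, edgeR). Rplp2, an acidic protein of the stalk that recruits elongation factors, had 13.0 and 14.5 CPM untreated and 10.1 and 10.97 CPM at 36 h (−0.38, SE 0.0923, adjusted p = 0.00168). Both 36 h libraries were below both untreated libraries for each of these genes, and the replicates lay close together. Rpl10l, Rpl5, Rplp2 and Rps27a were the 4 genes that passed in every fit that left out 1 library of 0 h or 36 h. Rpl5 had 57.4 and 58.2 CPM untreated and 50.3 and 48.4 CPM at 36 h (−0.22, SE 0.0546, adjusted p = 0.00245). With retrocopy reads added 19 genes passed at 36 h, 12 of them among the 16. Rpl36, Rpl36a and Rpl23a no longer passed, and Rpl12 turned from −0.26 to 0.08 (adjusted p = 0.0815, edgeR). Of the genes that still passed, Rps27a was then at −0.24 and Rpl5 at −0.11, while Rplp2 stayed at −0.38 and Rpl10l at −0.35.

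**Figure D3:**
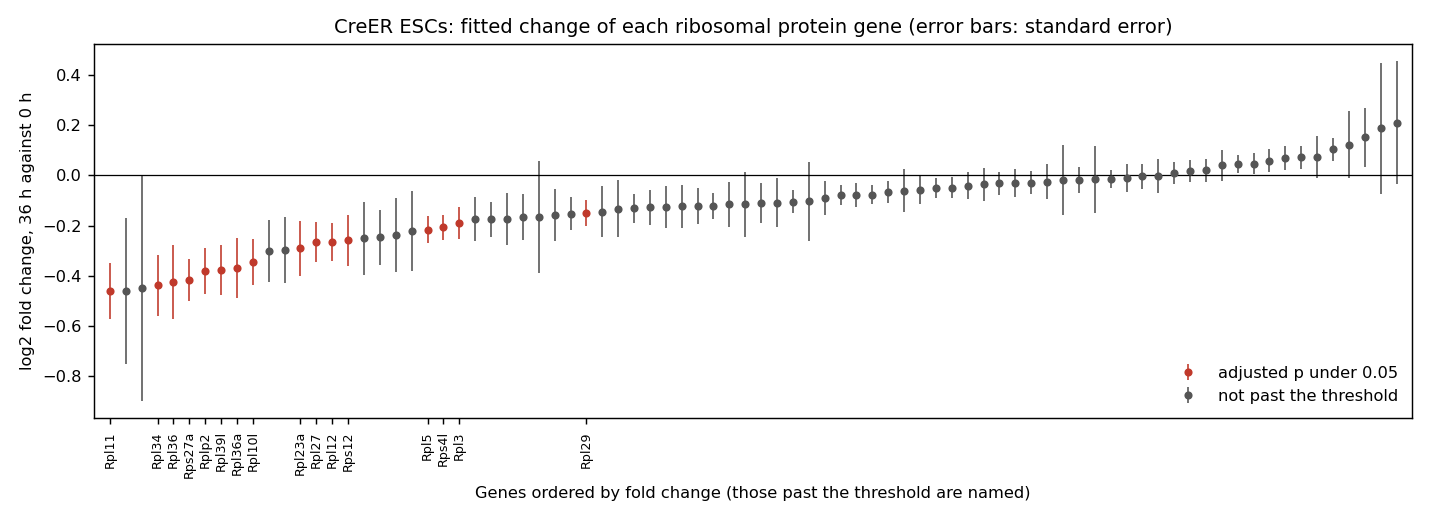
Fitted log2 fold change (edgeR) of each of the 82 ribosomal protein genes in CreER ESCs at 36 h of 4-OHT against 0 h, ordered by size, with the standard error as bars and the genes past the threshold named. The 16 genes past the threshold (red) are all below 0, and 67 of the 82 points are.

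The abundant genes moved less than these. Rpl8 had 1489 and 1491 CPM untreated and 1352 and 1451 CPM at 36 h (log2 fold change −0.08, adjusted p = 0.122, edgeR), Rps3 had 1292 and 1284 CPM and then 1301 and 1334 CPM (0.04, adjusted p = 0.368), and Rpsa, a small-subunit protein also known as the laminin receptor precursor, had 464 and 415 CPM and then 420 and 464 CPM (0.02, adjusted p = 0.796). Rps6, the substrate of the S6 kinases, had 54.3 and 57.1 CPM untreated and 55.4 and 52.0 CPM at 36 h (−0.04, adjusted p = 0.596). Of the other stalk proteins, Rplp0 gave 0.05 (adjusted p = 0.401) and Rplp1 −0.13 (adjusted p = 0.289). None of these 6 values passed the test, which does not show that the genes were unchanged. The summed level of all 82 genes was 11708 and 11824 CPM untreated and 11190 and 11567 CPM at 36 h.

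Between 24 h and 36 h 17 of the 82 genes passed, 14 lower and 3 higher, where 14.7% of all genes did and 6.55% did and were lower. The largest falls were in Rpl34 (log2 fold change −0.50, adjusted p = 0.00497, edgeR), Rps13 (−0.47, adjusted p = 0.00723) and Rpl28 (−0.41, adjusted p = 0.0243), and the rises were in Rpl26 (0.18), Rpl14 (0.14) and Rps3 (0.11). Rps13 had 10.6 and 9.25 CPM at 24 h and 7.21 and 7.14 CPM at 36 h. With retrocopy reads added the log2 fold changes were −0.07 for Rpl34, −0.02 for Rps13 and −0.12 for Rpl28, and the median over the 82 genes went from −0.07 to 0.01. Then 3 genes (Rpl13, Rplp2 and Rps3) passed, and DESeq2 called 7 with the reads as deposited. Leaving out replicate 2 of 24 h left 1 gene, Rps13, leaving out replicate 1 left 6, and leaving out a library of 36 h left 5 (replicate 1) or 10 (replicate 2). Total counts moved the median of all genes to −0.10 in this comparison and gave 36 calls, all lower, so the rises were not seen under that scaling.

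In O4AID ESCs nearly every ribosomal protein gene was lower by the end of the 24 h of IAA. Against the untreated library the median log2 change was −0.02, −0.08, −0.17 and −0.35 at the successive times, and the number of genes below 0 was 56, 74, 80 and 81 of 82. Over all genes the median was between −0.02 and 0 at each of these times. Their share of the reads was 6.21% untreated, then 6.30%, 6.20%, 5.83% and, in the last library, 5.33% (95% Wilson interval 5.32% to 5.33%), and their summed level went from 68061 CPM to 54249 CPM. For 67 of the 82 genes the level was lower at each step from 0 to 6, 10 and 24 h, a count not made over all genes. Each time is 1 library, so these changes have no replicate check, and fewer RNA molecules per cell and a change in the makeup of the culture cannot be told apart. Under total counts the median at 24 h was −0.24 with the median of all genes at 0.07, and 2 genes in place of 6 were past the fold. Of the 8 ESC markers 7 were lower by a log2 of 0.5 in this library, and 5 of 7 trophectoderm markers were higher. Of all 17844 genes with a mean of at least 10 counts, 2073 were lower and 2416 higher by this rule. Reads of the mitochondrial ribosomal RNA genes were 6.55% of the untreated library and 9.68% of the 24 h library. Their part in the change was not tested.

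The decrease was past the fold in few of the genes. At 1.5, 6 and 10 h 0 of the 82 genes were lower by a log2 of 0.5, where 0.881%, 3.40% and 5.30% of all genes with a mean of at least 10 counts were, and at 24 h 6 were, where 11.6% of all genes were. At 24 h the counting interval of the change lay below 0 for 80 of the 82 genes, and this was not counted over all genes. The medians of the large and the small subunit at 24 h were −0.35 and −0.34. The exception to the direction was Rpl24, with the few reads described above, at 0.04 (interval −0.21 to 0.29).

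The largest decreases at 24 h of IAA were in Rpl39l, from 26.1 to 11.4 CPM (log2 change −1.13, 95% interval from counting −1.27 to −0.99), and Rpl10l, from 93.9 to 59.0 CPM (−0.66, −0.73 to −0.59). These are the paralogs that also passed at both 24 h and 36 h in CreER ESCs. Rpl36 went from 362 to 244 CPM (−0.57), Rpl35 from 502 to 347 CPM (−0.53) and Rps18 from 1430 to 1000 CPM (−0.52), and the sixth past the fold was Rps16 (−0.51). Among the genes with a mean of at least 50 counts, the changes nearest to 0 included those of Rpl23a (−0.10), Rplp0 (−0.14), Rps26 (−0.16) and Rpsa (−0.16), the last at 3170 CPM untreated and 2839 CPM at 24 h.

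At the earlier times Rps27a was lower from the first time on and went from 759 CPM untreated to 692, 612, 618 and 557 CPM (log2 change −0.31 at 6 h, interval −0.33 to −0.28). Among the lowest other early values were those of Rpl10 at 1.5 h (−0.15), Rpl31 at 6 h (−0.20) and, at 10 h, Rps27l (−0.45), a p53-responsive paralog of Rps27, and Rps16 (−0.43). Rpl34 at 1.5 h (0.11) and Rpl23a at 6 h (0.06) were on the higher side, and Rplp1 was nearly level at 10 h (−0.05).

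**Figure D4:**
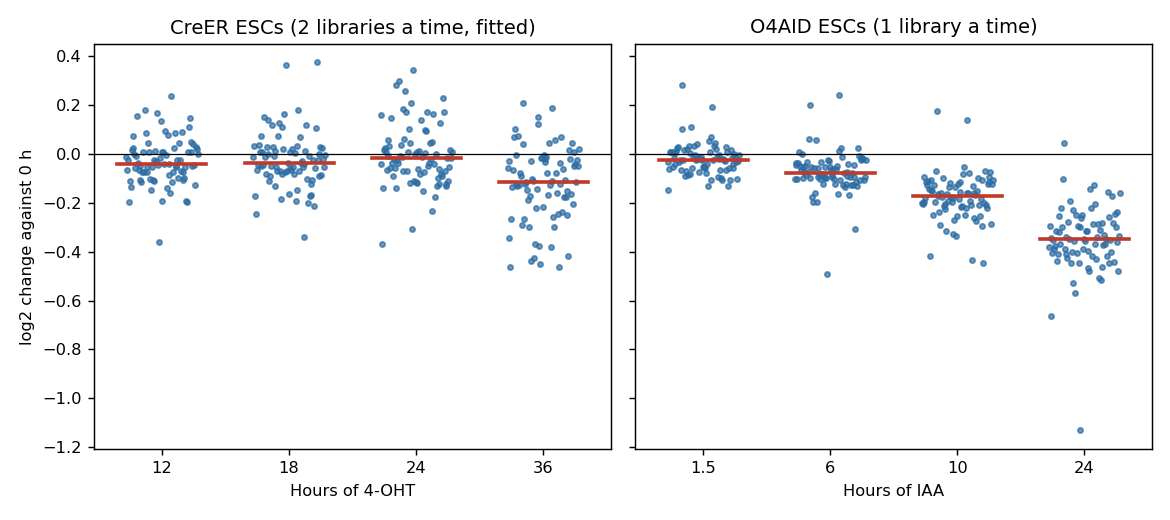
Log2 change of each of the 82 ribosomal protein genes against 0 h in CreER ESCs after 12 to 36 h of 4-OHT (left, edgeR fit of 2 libraries a time) and in O4AID ESCs after 1.5 to 24 h of IAA (right, log2 of CPM plus 1, 1 library a time), with the median as a red line. The medians on the left stay between −0.02 and −0.04 up to 24 h and reach −0.11 at 36 h, and on the right they go from −0.02 to −0.35.

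At the shared time of 24 h, on log2 of CPM plus 1, the median change was −0.02 in CreER ESCs, with 51 of 82 genes below 0, and −0.35 in O4AID ESCs, with 81 of 82 below 0. With retrocopy reads added these became −0.09 with 77 below 0 and −0.35 with all 82 below 0. The agents, the way OCT4 is lost, the lines and possibly the medium differ together, and the difference between the lines was not tested. At 24 h Pou5f1 mRNA stood at 133 and 134 CPM in CreER ESCs, where the protein was not measured in the sequenced cultures. The paper reports that full loss of OCT4 protein took about a day or longer after CreER-driven deletion. For O4AID ESCs it reports that tagged OCT4 could not be detected within hours of adding IAA. The shared 24 h is therefore not an equal time without OCT4.

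For the paralogs, the values below leave out reads in retrocopies unless these are named. Rpl3l, the heart and muscle form of Rpl3, had 0.473 and 0.528 CPM in untreated CreER and 1.44 CPM in untreated O4AID ESCs, against 101 and 115 CPM and 1733 CPM for Rpl3, which fell at 36 h in CreER (log2 fold change −0.19, adjusted p = 0.0273, edgeR). Rpl10l was at 24.2 and 21.8 CPM and 93.9 CPM against 51.1 and 49.1 CPM and 191 CPM for Rpl10. Rpl39l was at 12.3 and 14.5 CPM and 26.1 CPM against 26.4 and 22.0 CPM and 330 CPM for Rpl39. Rps4l, the annotated processed pseudogene, had 269 and 252 CPM and 275 CPM, and fell in CreER at 36 h to 212 and 237 CPM (−0.21, adjusted p = 0.00218). Rps4x, the X-linked gene, had 403 and 424 CPM and 1320 CPM. Rps27l had 146 and 137 CPM and 188 CPM, where Rps27 had 4.73 and 5.81 CPM in CreER and 546 CPM in O4AID. Adding retrocopy reads turned the order of this pair in untreated CreER ESCs, with a mean of 394 CPM for Rps27 and 142 CPM for Rps27l. On the same footing Rpl39 was at 116 CPM against 13.5 CPM for Rpl39l, and Rpl10 at 323 CPM against 23.1 CPM for Rpl10l. Of the 10 paralogs 4 passed at 36 h in CreER, all lower (Rpl10l, Rpl39l, Rps4l and Rpl3), where 36.6% of all genes passed and 17.2% passed and were lower.

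The annotated start sites were searched for the pyrimidine start of the TOP class and for promoter motifs. RefSeq windows (GRCm38.p6) of 300 bases, 250 before and 50 after the start, were matched for 60 of the 82 genes, in 72 windows. A C followed by at least 4 pyrimidines began exactly at the annotated start in 18.1% of these windows and in 2.51% of all 32851 windows. It began within 3 bases of that start in 34.7% and 11.5%, so most of the windows lacked it at or near the annotated start. Whether the annotated starts are the ones used in these cells was not tested, so a pyrimidine start elsewhere would be missed. The stretches below, 15 bases before and 10 after the start, are of named genes with the run exactly at the annotated start. The uninterrupted pyrimidine run from the start is in capitals.
Rps6: aagcggaagtcgggcCTCTTTTTCg
Rpl35: cggccccgccctttcCTCTTTCTCT
Rps18: tacgtcacttccgctCTCTCTTCCa
Rps27: atttccgctttcgctCCTTTCCggc
Rpl28: ccgcctctcgtgtctCTCTTTCCgt
Rpl14: gggcgggccctctctCTTCTCgctg
Rplp2: tgcgtcagcgtcttcCTTTCgccgc

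On either strand, CCGGAAG, the core bound by ETS factors such as GABPA, was in 36.1% of the ribosomal protein windows and 8.86% of all windows, GGGCGG, a GC box, in 58.3% and 35.7%, and AAGATGG, the core of the YY1 motif, in 15.3% and 6.34%. TATAAA was in 8.33% and 13.6%, and ATGCAAA, part of the octamer that OCT4 can bind, in 2.78% and 4.63%. The 13 genes with the pyrimidine start exactly at the annotated start had a median log2 fold change of −0.11 at 36 h in CreER and of −0.35 at 24 h in O4AID. For the 47 without it there, the medians were −0.09 and −0.35. With 3 bases allowed 24 genes had it, so the 47 include genes with a pyrimidine run nearby. The 25 genes with CCGGAAG had medians of −0.10 and −0.36, and the 35 without it −0.10 and −0.35. A match to these letters is a description of the window and not a site of binding.

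Genes that build and run the ribosome were set beside its proteins. Of 47 ribosome biogenesis genes, which process ribosomal RNA in the nucleolus, 42 passed at 36 h in CreER ESCs, where 36.6% of all genes did, and 31 at 24 h, where 21.6% did. All of these were lower, where 17.2% of all genes at 36 h and 10.6% at 24 h passed and were lower. The median log2 fold change of the 47 at 36 h was −0.24. Their largest fall was in Ncl, nucleolin, from 2245 and 2313 CPM to 1423 and 935 CPM (−0.94, SE 0.190, adjusted p = 0.0140, edgeR), where the 36 h libraries lay far apart. In O4AID ESCs at 24 h 22 of the 47 were lower by a log2 of 0.5, where 11.6% of all genes were, with a median of −0.47. Of 37 translation factors 14 fell and 1 rose at 36 h in CreER, where 17.2% of all genes passed and were lower, with the largest fall past the test in Eif1ax (−0.31, adjusted p = 1.09e-06) and the rise in Eif4h (0.12, adjusted p = 0.0164), and their median was −0.11, as for the ribosomal proteins.

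Among 77 mitochondrial ribosomal protein genes tested, 33 fell and 2 rose at 36 h (median −0.14). The share passing was 45.5%, where 36.6% of all genes passed and 17.2% passed and were lower. Mrpl22 was at −0.46 (adjusted p = 1.79e-06, edgeR) and Mrpl23 at 0.48 (adjusted p = 0.0194). Of 12 other TOP genes and snoRNA hosts 5 fell and 0 rose, a share of 41.7%, where 17.2% of all genes passed and were lower. Their largest fall past the test was in Hnrnpa1, an RNA-binding protein (−0.56, adjusted p = 2.06e-05). Of the 7 ribosomal protein genes outside the symbol rule 2 fell, where 17.2% of all genes passed and were lower. These were Rpl36al (−0.22, adjusted p = 0.00354) and Rpl7l1 (−0.15, adjusted p = 0.00351). Between the untreated lines 5 of the 7 genes outside the symbol rule were higher in O4AID by the rule above, where 28.5% of all genes were higher. By the same rule 1 of the 7 was lower (log2 difference −0.90), where 26.1% of all genes were lower. Fau was at 11.7 and 11.3 CPM in CreER and 421 CPM in O4AID and Rps3a1 at 15.4 and 16.9 CPM and 400 CPM, while Rack1 was at 1770 and 1793 CPM and 2761 CPM.

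Of 15 regulators of ribosomal protein synthesis 4 fell and 2 rose at 36 h in CreER, which is 40.0% passing where 36.6% of all genes did. Myc, a transcription factor that drives ribosome production, fell from 24.4 and 24.6 CPM to 10.4 and 10.7 CPM (log2 fold change −1.21, adjusted p = 1.22e-11, edgeR), and had at most 0.102 CPM in any O4AID library. Tsc1, an inhibitor of mTOR signaling, rose (0.57, adjusted p = 1.01e-08). In the p53 arm that free Rpl5 and Rpl11 act on, Mdm2 rose from 165 and 158 CPM to 264 and 265 CPM (0.72, adjusted p = 6.58e-14), Cdkn1a rose (0.42, adjusted p = 0.000216) and Trp53 fell (−0.43, adjusted p = 1.35e-08) in CreER. In O4AID at 24 h the log2 changes were −0.09 for Mdm2, −0.11 for Cdkn1a and −0.98 for Trp53. Markers of other cells moved alongside at 36 h in CreER, where all 7 trophectoderm markers rose, from 0.158 to 14.0 CPM untreated, with Hand1 going from 10.4 and 7.95 CPM to 57.8 and 60.3 CPM, and 1 of 5 fibroblast markers tested, Col1a2, rose from 0.866 and 0.825 CPM to 1.75 and 1.61 CPM. Of the 8 ESC markers 5 fell and 2 rose past the test at 36 h in CreER, where 36.6% of all genes passed. Tfcp2l1 had the largest rise of them (log2 fold change 0.65, adjusted p = 1.17e-10, edgeR). The part of all these markers in the changes of the ribosomal protein genes was not tested.

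**Figure D5:**
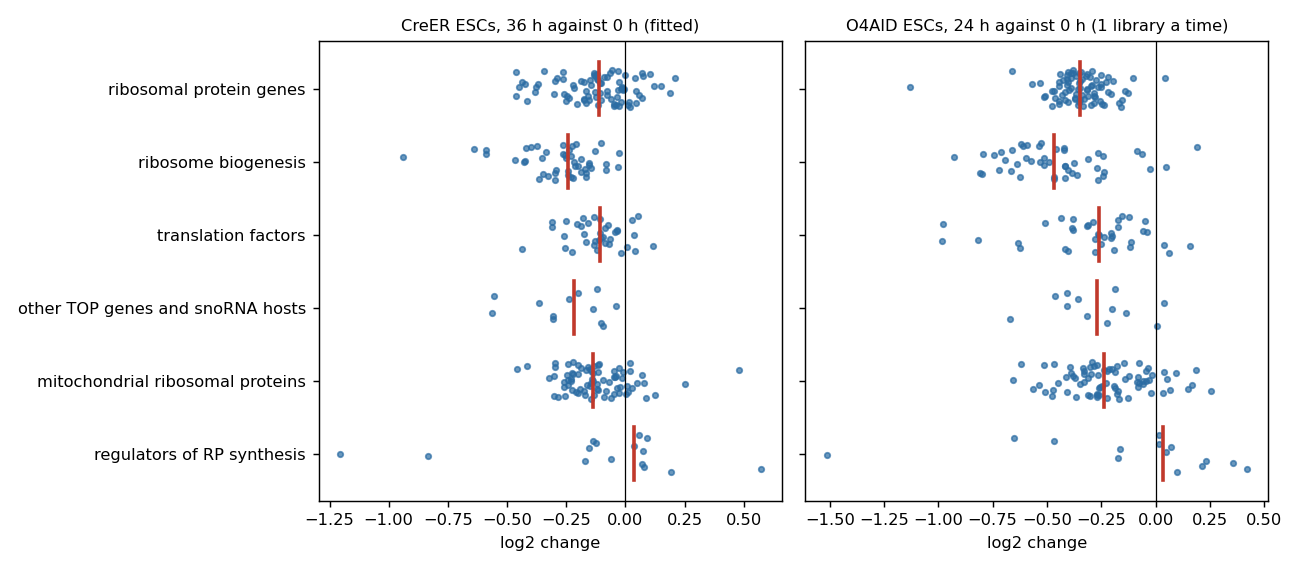
Log2 change of each gene in the ribosomal protein set and 5 related gene lists, in CreER ESCs at 36 h against 0 h (left, edgeR) and O4AID ESCs at 24 h against 0 h (right, log2 of CPM plus 1), with medians as red lines. Ribosome biogenesis genes have the lowest median in both panels, at −0.24 and −0.47, and the ribosomal protein genes have medians of −0.11 and −0.35.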

How the data were processed

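RNA of mouse ESCs was depleted of ribosomal RNA, made into directional libraries and sequenced. The authors trimmed reads with Trim Galore 0.1.4, aligned them with TopHat2 2.1.0 to GRCm38/mm10 and counted them per gene with featureCounts 1.5.1 on an Ensembl annotation, and the deposited counts of each of the 15 libraries are whole numbers of reads. Alignment was at TopHat2's defaults for paired reads, and the counting settings for strand and for reads matching several places are not given in the sources used here. The deposited normalized table holds a signal, the authors' TMM-scaled counts. It was used to choose the genes and not for any test. Exon lengths, deposited with the counts, were used for levels per kilobase.

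Genes passing filterByExpr were tested on the 10 CreER libraries with edgeR 4.0.16 (R 4.3.3, TMM factors, robust quasi-likelihood test, two-sided, Benjamini-Hochberg adjustment over all genes tested, threshold 0.05). All adjusted p-values come from this model unless DESeq2 1.42.0, an alternative, is named. The scripts were tested on simulated data. O4AID ESCs have 1 library a time, so changes are log2 of CPM plus 1, past the fold at 0.5, with 95% Wilson intervals of each share combined, for genes with a mean of at least 10 counts. Untreated lines were compared in the same way against both CreER libraries. Retrocopies were found with BLAST 2.17.0, and shared exon bases with bedtools 2.31.1. Python 3.11.15, pandas 2.3.3, numpy 2.4.6, SciPy 1.17.1 and matplotlib 3.10.9 were used.

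The genes and lists were chosen with earlier results of these data known. Named genes were the 5 highest and 3 lowest per kilobase in untreated CreER ESCs, up to 5 called in each direction at 36 h and up to 3 at the other CreER times, 5 in each direction at 24 h in O4AID and between the lines, 2 at earlier IAA times, all with a mean of at least 50 counts, the paralog pairs, 8 genes chosen for their roles, and from each list the largest called rise and fall. Some genes this rule takes in are not reported here. Genes named beyond this rule were chosen after their values were seen. Alternatives were other size factors, filters, pseudocounts and folds, DESeq2, the 4 compared libraries alone, a replicate block, each library left out in turn and, chosen after the data were seen, retrocopy reads added to the parent gene. Replicate numbers did not pair the samples (correlations of deviations −0.0409 to 0.0787). Replicates differed beyond sampling noise in every group (chi-square per degree of freedom 3.27 to 7.76).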

Additional observations from a re-analysis of the deposited data

Results flagged for a closer look

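For 7 ribosomal protein genes both CreER libraries at 24 h were above both untreated libraries, where 5612 of all 18969 genes tested were. For 22 of the 82 both lay below both, where 5531 of all genes did. In each of the 7 genes the O4AID library at 24 h was below the untreated one, as in 81 of the 82. Changes are on log2 of CPM plus 1. Rpl10a was at 0.15 in CreER and −0.30 in O4AID, Rpl17 at 0.047 and −0.44, Rpl19 at 0.13 and −0.32, Rpl28 at 0.27 and −0.43, Rpl35 at 0.19 and −0.53, Rpl3l at 0.12 and −0.26, and Rps19 at 0.15 and −0.28. The difference between the lines was not tested, because each O4AID time is 1 library. Of these, only Rpl10a passed the edgeR test in CreER at 24 h. The CreER values of 5 of the 7, once retrocopy reads were added, turned below 0, to −0.06 for Rpl10a, −0.09 for Rpl17, −0.07 for Rpl19, −0.08 for Rpl28 and −0.02 for Rps19, while Rpl35 and Rpl3l were both at 0.12.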

How the results depend on the processing

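The 76 genes past the fold between the untreated lines numbered 68 to 77 under every alternative run, while total counts moved the median of all genes in that comparison from 0.02 to −0.12. At 18 h in CreER the 0 calls became 1 with RLE size factors, 1 with TMM without the ribosomal protein genes, 3 without a filter on low counts, 1 with at least 10 counts in every library and 5 with retrocopy reads added. At 24 h the 5 calls became 9 without the filter, 3 with DESeq2, 3 with only the 4 libraries compared and 13 with retrocopy reads added, which also moved the median to −0.088 and reversed Rpl10a to −0.056. The same addition reversed Rpl12 to 0.081 at 36 h against 0 h and to 0.083 against 24 h, and Rpl29 to 1.03 between the untreated lines. Total counts gave 38 calls and a median of −0.20 at 36 h, and 36 calls for 36 h against 24 h, where DESeq2 gave 7 and retrocopy reads added gave 3. With each library left out in turn, the 12 h comparison had between 0 and 6 calls with medians between −0.081 and 0.036. The 18 h comparison had between 0 and 14 calls with medians between −0.072 and 0.026. The calls lay between 1 and 13 at 24 h and between 6 and 35 at 36 h, where the medians lay between −0.15 and −0.037. For 36 h against 24 h they lay between 1 and 10. The replicate block gave 0, 0, 5 and 17 calls from 12 h to 36 h and 17 for 36 h against 24 h. In O4AID, a pseudocount of 0.1 gave 1, 2 and 1 genes past the fold at 1.5, 6 and 10 h, a fold of 0.3 gave 2, 6 and 53 at 6, 10 and 24 h, a fold of 1 gave 1 at 24 h, and total counts gave 2 and a median of −0.24 at 24 h. Shares of all genes called under these alternatives are not given, here or above, so a changed number of calls may hold for all genes too. The cause of these changes was not tested. Over the genes that passed in CreER, the genes named at both ends of the comparison of untreated lines and the O4AID medians, single values kept their direction and side of the threshold, or stayed within their spread, in 377 cases, missed the threshold in 138, moved beyond their spread in 17 and reversed in 4, all 4 with retrocopy reads added. Headline results, tallied apart from these values, stayed the same in 108 cases and moved in 42. Under 50 CPM, where 45 of the 82 genes lay in untreated CreER ESCs, few reads limit what can be seen.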
